A study of Mus musculus with 10 samples.

Results

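The 94 genes described here encode cytokines, chemokines and their receptors, and a few proteins that share their names. They were chosen by name from a table of 10141 genes: names starting with Cxcl, Cxcr, Tnf, Ccl or Ccr with a digit, Il with a digit, or Tgfb with a digit or r. Of the 94, 32 encode ligands, 52 encode receptors, 1 encodes an antagonist, 2 encode secreted binding proteins and 7 encode other proteins. The mice were CD45.1 recipients that had been given thawed MLL-AF9/GFP leukaemia cells by tail vein. Marrow was taken once GFP+ cells made up 2% of peripheral blood. GFP+ leukaemia cells (5 libraries) were compared with GFP-CD11b+ myeloid cells of the same kind of marrow (5 libraries), which the series design text calls CD45.2-. The protocol names flow sorting for both groups, whereas the design text names magnetic sorting for the myeloid cells. The genotype and cell type fields give all 10 libraries the same entry, so the groups follow the sample titles. The promoter that drives the fusion, the number of leukaemia clones, the age of the mice and whether each library came from its own mouse are not given in the sources used here. P-values therefore measure the spread between these libraries.

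Cytokines are secreted or membrane-bound signals, and most act through receptors that start a kinase cascade in the receiving cell. Chemokines are small cytokines that steer cell movement through G protein-coupled receptors; in the marrow, Cxcl12 holds cells in place through Cxcr4, and Cxcr2 draws mature neutrophils out. Interleukin-1 family signals pass through paired receptor chains and are held back by an antagonist, by decoy receptors and by binding proteins. TNF superfamily ligands act on TNF receptors, some of which start cell death, and TGF-beta restrains the growth of many blood cells.

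Sort and lineage genes were read first. The leukaemia programme genes Hoxa9, Meis1 and Hoxa10 summed to between 7336 and 9133 normalised reads (reads divided by the authors' size factor) in leukaemia and between 96.5 and 159.7 in myeloid libraries. Itgam, which encodes CD11b, had 12227 ± 1128 normalised reads in leukaemia, against 97794 ± 13874 in myeloid cells (SD, n = 5 each). The 8 neutrophil markers, all lower in leukaemia, summed to between 64468 and 69772 in leukaemia and between 2088661 and 3495568 in myeloid libraries, so the myeloid group was rich in neutrophil RNA. It also held RNA of natural killer (NK) cells, with the 6 markers of that list at between 11.9 and 46.4 in leukaemia and between 1676 and 5194 in myeloid libraries. No normal immature cells were analysed here, so leukaemia and stage of maturation cannot be told apart in any result. The 10141 genes held from 24099545 to 30879471 reads in leukaemia libraries and from 24712829 to 32247826 in myeloid libraries.

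Cytokine and receptor genes were mostly lower in leukaemia than in myeloid cells. Of the 94, 56 passed the filter on low values. It asks for a mean log2-scale, variance-stabilised value over the 10 libraries more than 1 unit above the lowest value. A value at that cut equals about 145 normalised reads, so a gene high in 1 group only can fail. In limma at an adjusted p of 0.05, 44 of the 56 were lower, 11 were higher and 1, Cxcl10, did not pass. That is 78.6% lower and 19.6% higher, beside 50.7% lower and 49.1% higher over all 8079 genes tested. The share that passed in either direction (98.2%) is no result about these genes, because 99.8% of all tested genes in this table passed too. With an absolute log2 difference of at least 1 as a further condition, 31 (55.4%) were lower and 5 (8.93%) higher, against 18.1% and 9.52% of all tested genes; together these were 36 genes, against 27.7%. No value was shared between the groups' ranges in 50 of the 56 (89.3%), against 86.8% of all tested genes; they overlapped for Il2rg, Ccl9, Cxcl10, Tnfsfm13, Tnfrsf23 and Tnfsf10. A gene that passes the filter through the group where it is high had to differ, so these counts describe the genes and support nothing further.

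Ligand genes and receptor genes were both mostly lower. Among 16 tested ligands, 12 were lower and 3 higher, with a median log2 difference of -1.16. Among 32 tested receptors, 25 were lower and 7 higher, with a median of -1.17. The median over all tested genes was -0.16. Log2 differences are leukaemia minus myeloid on the variance-stabilised scale, which understates changes where reads are few, and folds are ratios of mean normalised reads. In bulk libraries fewer cells of a type and less RNA per cell cannot be told apart. A table-total scale sets each library to the same sum and moves the median of all tested genes to 0.43. On it, the same 56 genes had 12 higher and 35 lower and a median of -0.77. Of all tested genes, 57.2% were higher and 27.6% lower on that scale.

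**Figure D1:**
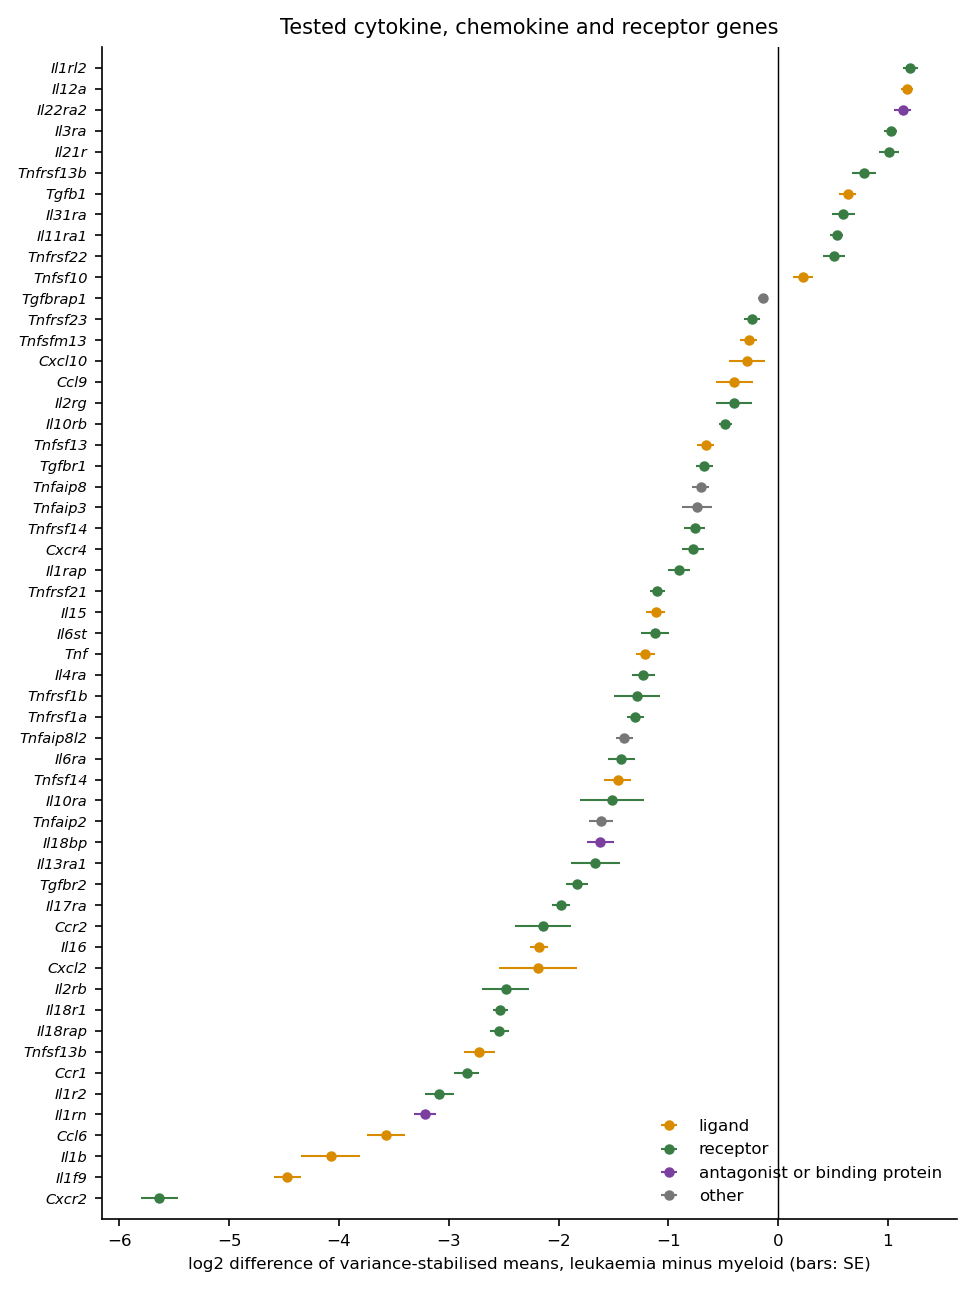
Log2 difference of variance-stabilised means, leukaemia minus myeloid, for 55 of the 56 tested genes, with bars for the SE and colours for ligands, receptors, antagonist or binding proteins, and others. Points run from Il1rl2 at 1.21 to Cxcr2 at -5.64, and 44 of the 55 lie below 0.

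Promoter sequences are shown for 5 of these genes because they hold a match to a motif of the factor families NF-kB or C/EBP, which act on many inflammatory and myeloid genes; 3 of the genes had lower and 2 had higher values in leukaemia. RefSeq promoters (build GRCm38.p6) were at hand for 74 of the 94 genes, as 94 windows of 300 bases each. The letters GGANTTTCC (NF-kB), searched on both strands, were found in 12 of the 94 windows (12.8%) and in 412 of 32851 windows of all genes (1.3%). With 1 more G in front, the form searched first, they were found in 4 of the 94 (4.26%), in Cxcl2, Il16, Il6 and Ccr3, and in 135 of all (0.411%). Of the 12 genes with the shorter form, Il12a and Il1rl2 were higher in leukaemia, Cxcl2, Il16, Il18rap, Tgfbr2, Tnfaip2 and Tnfaip3 passed as lower, Cxcl10 did not pass, and Il6, Ccr3 and Il1rl1 were below the filter. The letters TTGCNNAA (C/EBP) were found in 15 of the 94 windows (16%) and in 10.8% of all. GAGGAAGT, a PU.1 motif, was found in 2.13% against 3.20%, and TATAAA in 14.9% against 13.6%. The 250 bases upstream of the start are printed 5′ to 3′ on the gene's strand, with NF-kB and C/EBP matches in capitals; these matches do not overlap each other. Il16 had other windows as well, not printed, which held no NF-kB or C/EBP match. A match is a description of letters and not a site.
Cxcl2, chr5:90903649-90903898 (+ strand), NF-kB letters starting at position -96: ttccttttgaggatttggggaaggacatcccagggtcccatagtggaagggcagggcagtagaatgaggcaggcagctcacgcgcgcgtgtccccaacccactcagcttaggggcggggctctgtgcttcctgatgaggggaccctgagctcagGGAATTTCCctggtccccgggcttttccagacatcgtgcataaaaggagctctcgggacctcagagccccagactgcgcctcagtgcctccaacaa
Il16, chr7:83655496-83655745 (- strand), NF-kB letters starting at -48 and C/EBP letters at -242: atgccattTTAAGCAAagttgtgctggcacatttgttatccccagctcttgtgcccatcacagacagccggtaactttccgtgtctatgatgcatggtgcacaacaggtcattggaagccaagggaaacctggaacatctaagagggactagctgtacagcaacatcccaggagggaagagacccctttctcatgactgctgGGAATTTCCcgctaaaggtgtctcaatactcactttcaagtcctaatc
Il6, chr5:30012864-30013113 (+ strand), NF-kB letters starting at -43 and C/EBP letters at -128: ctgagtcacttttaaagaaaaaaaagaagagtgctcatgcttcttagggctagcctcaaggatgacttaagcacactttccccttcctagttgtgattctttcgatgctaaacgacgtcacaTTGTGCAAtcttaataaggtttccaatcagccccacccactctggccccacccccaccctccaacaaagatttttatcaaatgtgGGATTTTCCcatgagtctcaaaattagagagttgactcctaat
Il1rl2, chr1:40324339-40324588 (+ strand), C/EBP letters starting at -124 and NF-kB letters next to them at -116: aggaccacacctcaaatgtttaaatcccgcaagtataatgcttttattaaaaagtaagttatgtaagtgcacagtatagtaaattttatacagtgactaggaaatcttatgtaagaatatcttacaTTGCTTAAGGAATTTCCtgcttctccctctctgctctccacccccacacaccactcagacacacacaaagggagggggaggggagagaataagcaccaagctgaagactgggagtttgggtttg
Il3ra, chr14:14346245-14346494 (+ strand), C/EBP letters starting at -134: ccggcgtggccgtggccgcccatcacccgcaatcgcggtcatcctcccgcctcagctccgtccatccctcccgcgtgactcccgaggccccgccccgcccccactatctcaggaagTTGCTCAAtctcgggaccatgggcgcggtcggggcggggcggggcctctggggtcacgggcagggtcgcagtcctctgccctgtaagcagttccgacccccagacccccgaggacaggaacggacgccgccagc

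All 5 tested chemokine receptor genes were lower in leukaemia, and Cxcr2, the receptor that draws neutrophils towards Cxcl1 and Cxcl2, had the lowest log2 difference of the 56 on the variance-stabilised scale; Il2rb and Il1f9 had larger folds of mean normalised reads. Cxcr2 had 279.9, 197, 386, 206 and 325 normalised reads in leukaemia replicates 1 to 5 and 22730.2, 48275, 36106, 44486 and 35361 in myeloid replicates 1 to 5. The groups were far apart, 134-fold in their means, although myeloid replicate 1 was the lowest of its group (log2 difference -5.64, SE 0.17, limma adjusted p = 9.45e-12). Ccr1, a receptor of Ccl6 and Ccl9 in the mouse, had 1810.1, 1621, 1488, 1419 and 1259.8 in leukaemia and 10686, 16177, 16734, 12904 and 14736 in myeloid libraries. It was 9.38-fold lower (log2 difference -2.84, SE 0.11, limma adjusted p = 1.15e-10).

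Ccr2, which brings monocytes out of the marrow, had 8425, 5819.9, 6382, 4181 and 4914 normalised reads in leukaemia and 32433, 16814, 43279.8, 18189 and 36024 in myeloid libraries. The difference was 4.94-fold (log2 difference -2.14, SE 0.25, limma adjusted p = 3.02e-06), and myeloid replicates 2 and 4 lay well below the other myeloid libraries. Cxcr4, the marrow retention receptor, had 8353, 9792, 7777, 8982 and 8383 in leukaemia and 15325, 16730.0, 12529, 18101 and 13677 in myeloid libraries. It was 1.76-fold lower (log2 difference -0.77, SE 0.099, limma adjusted p = 6.67e-06), but on the table-total scale it no longer passed (-0.17, limma adjusted p = 0.0659). Per kilobase of exon, Cxcr4 had the highest mean of the 94 genes in leukaemia, at 4788 normalised reads, and the third highest in myeloid cells, at 8447.

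Of 6 chemokine receptor genes below the filter, none was higher in leukaemia. Cxcr1, a neutrophil receptor, had no read in any leukaemia library and 124 ± 60.9 normalised reads in myeloid cells (SD, n = 5), at least 51.5-fold lower against a floor of 3 reads per library. Cxcr3, Ccr3, Ccr9, Ccr10 and Cxcr5 had lower means in leukaemia too, none above 106 normalised reads in either group.

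Of 4 tested chemokine ligand genes, 3 were lower in leukaemia and Cxcl10 did not pass. Ccl6, a chemokine of myeloid cells in the mouse, had 1899.8, 1406, 1189, 1351 and 1255 normalised reads in leukaemia and 24297, 28299.8, 16000.2, 31093 and 16654 in myeloid libraries. It was 16.4-fold lower without overlap (log2 difference -3.57, SE 0.17, limma adjusted p = 6.03e-10) and had the highest mean per kilobase in myeloid cells, at 12963. Ccl9, another Ccr1 ligand of the mouse, had 5099, 4718, 4065, 4321 and 4112 in leukaemia and 9076, 4113, 7208, 4535 and 6477 in myeloid libraries. The groups overlapped; Ccl9 passed as lower (1.41-fold, log2 difference -0.40, limma adjusted p = 0.034) but the difference was above 0 under quantile normalisation (0.13) and on the table-total scale (0.20). It did not pass when any 1 of leukaemia replicates 3, 4 and 5 or myeloid replicates 1, 3 and 5 was left out (limma adjusted p from 0.059 to 0.0823); without myeloid replicate 1 the log2 difference was -0.26, and without both myeloid replicates 2 and 4 it was -0.69.

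Cxcl2, a Cxcr2 ligand that attracts neutrophils, had 55.7, 0, 22.3, 0 and 4.64 normalised reads in leukaemia and 1724, 787, 1940.3, 111 and 1857 in myeloid libraries. No leukaemia library reached the lowest myeloid library, replicate 4, and the means differed 77.7-fold (log2 difference -2.19, SE 0.35, limma adjusted p = 5.81e-05). Leukaemia replicate 1 was the highest of its group, and without it the fold was 191. Cxcl10, an interferon-induced ligand of Cxcr3, had 181 ± 57.3 in leukaemia, against 320.0 ± 221 in myeloid cells (SD, n = 5 each) and did not pass (log2 difference -0.28, limma adjusted p = 0.112); its difference was above 0 on the table-total scale (0.05). It passed as lower under quantile normalisation (-0.44, limma adjusted p = 0.0164), without myeloid replicate 2 (-0.39, limma adjusted p = 0.0282) and without both myeloid replicates 2 and 4 (-0.52, limma adjusted p = 0.00414). Without myeloid replicate 1 its difference was -0.12.

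Cxcl12, the Cxcr4 ligand made chiefly by marrow stroma, lay below the filter but was found in every leukaemia library. It had 563, 425, 366, 438 and 398 normalised reads in leukaemia and 36.1, 0, 24.4, 0 and 17.7 in myeloid libraries. The groups did not overlap, and the means stood 28.0-fold apart, with 2757 reads in all in leukaemia and 64 in myeloid libraries. With no filter on low values Cxcl12 passed as higher (log2 difference 1.41, limma adjusted p = 3.7e-08). Another stromal marker, Col1a1, had 17.4 ± 11.6 in leukaemia, against 169 ± 27.3 in myeloid cells, the opposite direction; these were the 2 of 5 stromal markers with an entry, and the part of stromal cells was not tested. The other 2 chemokine ligands with higher, non-overlapping values in leukaemia were Ccl27a (63.9 ± 7.55 against 29.7 ± 8.54), whose reads can be split with its near-identical copies, and Cxcl14 (8.54 ± 1.63 against 0.466 ± 1.04).

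**Figure D2:**
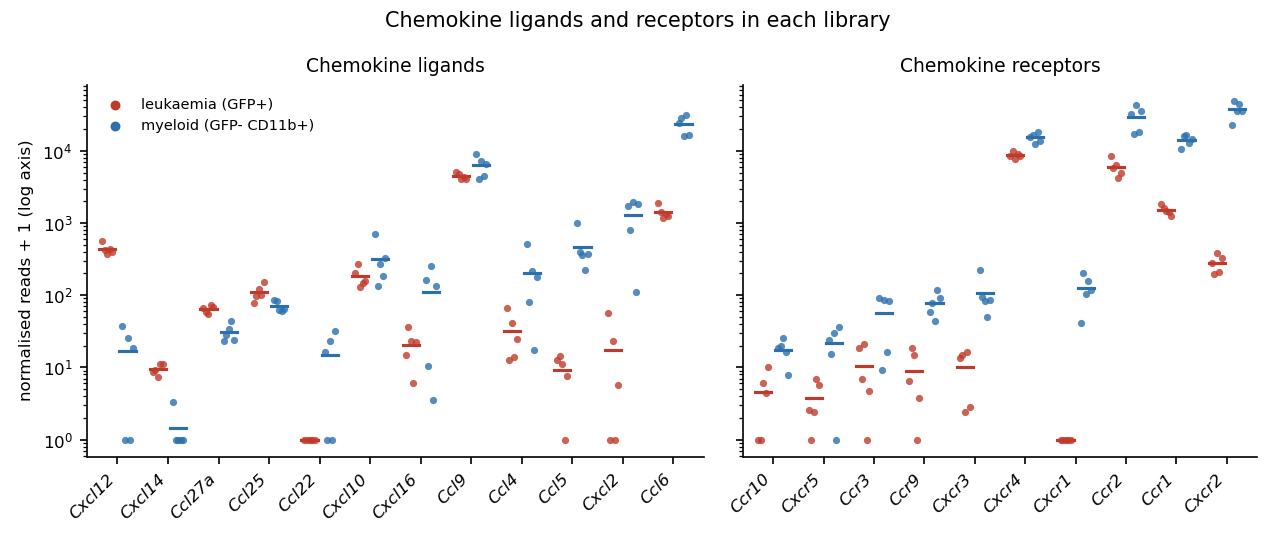
Normalised reads plus 1 on a log axis for the 12 chemokine ligand genes and 10 of the 11 chemokine receptor genes, one point per library and a bar at the group mean, leukaemia left of myeloid in each pair. Cxcl12 stands higher in leukaemia, while Ccl6, Cxcl2, Ccr1, Ccr2 and Cxcr2 stand lower without overlap.

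Among the interleukin-1 family genes chosen by name, the tested ligands Il1b and Il1f9 were lower in leukaemia, while receptor chains went both ways. The ligand Il1b, the main inflammatory interleukin-1 of myeloid cells, had 193, 22.9, 140.2, 17.8 and 82.6 normalised reads in leukaemia and 10519, 6518, 10973, 3267 and 9651 in myeloid libraries. It was 89.6-fold lower (log2 difference -4.08, SE 0.27, limma adjusted p = 1.11e-08), and in both groups replicates 2 and 4 were the lowest libraries. Il1f9, the older name for the gene of interleukin-36 gamma, had 53.4, 50.2, 83.4, 33.1 and 77.0 in leukaemia and 6709, 12223, 9301, 10793 and 9117 in myeloid libraries. This was the largest fold among the ligands that passed, 162-fold lower without overlap (log2 difference -4.47, SE 0.12, limma adjusted p = 5.51e-12).

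Il1rn, Il1r2 and Il18bp, which hold this signalling back, were also lower in leukaemia. Il1rn, which encodes the interleukin-1 receptor antagonist, had 417, 277, 329, 294 and 315 normalised reads in leukaemia and 5938, 8032, 6301, 8348 and 6038 in myeloid libraries, 21.2-fold lower (log2 difference -3.22, SE 0.097, limma adjusted p = 9.75e-12). Il1r2, the decoy receptor that binds interleukin-1 without signalling, had 66.5, 77.6, 72.6, 62.8 and 81.6 in leukaemia and 2362, 4752, 3292, 4369.7 and 3072 in myeloid libraries, 49.4-fold lower (log2 difference -3.08, SE 0.13). Il18bp, which encodes a secreted binder of interleukin-18, was 7.28-fold lower (205 ± 67.3 against 1492 ± 394, SD, n = 5 each).

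Among the signalling receptor chains, Il1rl2, the receptor chain for interleukin-36, had 1078, 933, 1112, 1077 and 1051 normalised reads in leukaemia and 161, 294, 211, 283 and 198 in myeloid libraries. It was 4.58-fold higher in leukaemia, the highest log2 difference of the 56 genes (1.21, SE 0.071, limma adjusted p = 3.16e-09), while its ligand gene Il1f9 was lower. Il1r1, the signalling receptor of interleukin-1, lay below the filter with 176 ± 26.9 in leukaemia, against 59.6 ± 29.2 in myeloid cells, without overlap, and with no filter it passed as higher (limma adjusted p = 4.28e-05). Il1rap, the accessory chain that both receptors use, was 2.39-fold lower (881 ± 87.2 against 2102 ± 445).

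Both chains of the interleukin-18 receptor were lower. Il18r1, the binding chain, had 32.5, 12.6, 35.2, 18.7 and 32.5 normalised reads in leukaemia and 1432, 1716, 1855, 1636 and 1944 in myeloid libraries, 65.3-fold lower (log2 difference -2.53, SE 0.070, limma adjusted p = 5.51e-12). Il18rap, the accessory chain, had 2048, 1918, 2222, 2138 and 2137 in leukaemia and 12030.3, 17299.7, 14565, 16280.5 and 14154 in myeloid libraries, 7.10-fold lower (log2 difference -2.54, SE 0.087, limma adjusted p = 2.71e-11). The difference between the folds was not tested. Il18 itself, Il1rl1 (the interleukin-33 receptor) and Il33 were below the filter. In leukaemia against myeloid cells, Il18 had 19.0 ± 9.60 against 123 ± 36.8, Il1rl1 11.8 ± 6.40 against 171 ± 63.8, and Il33 8.64 ± 3.15 against 1.98 ± 2.01 normalised reads. Mast cell and basophil markers, 4 of 5 with an entry, summed to between 295 and 511 in leukaemia and between 2522 and 4862 in myeloid libraries; their part in Il1rl1 was not tested.

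**Figure D3:**
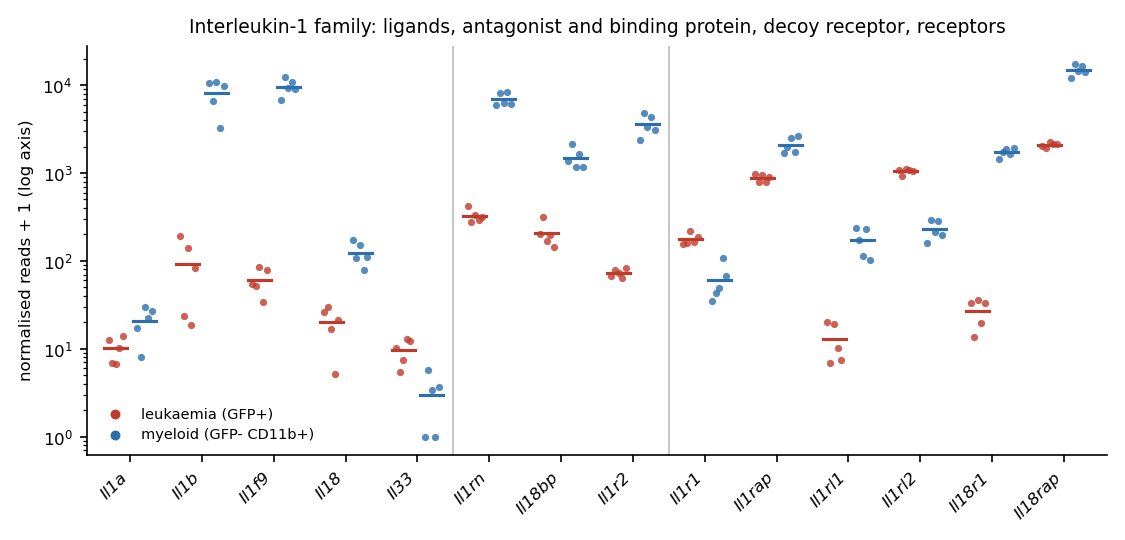
Normalised reads plus 1 on a log axis for 14 interleukin-1 family genes, one point per library and a bar at the group mean, leukaemia left of myeloid. Grey lines part ligands, inhibitors with the decoy receptor, and receptor chains; Il1rl2 is higher in leukaemia (mean 1050.3 against 229), and Il1b, Il1f9, Il1rn and Il1r2 are lower.

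Outside the interleukin-1 family, the interleukin gene with the highest log2 difference was Il12a. It encodes the p35 subunit shared by interleukin-12 and interleukin-35, and had 404, 421, 462, 507 and 437 normalised reads in leukaemia and 24.5, 50.8, 36.6, 35.3 and 42.1 in myeloid libraries. It was 11.8-fold higher in leukaemia (log2 difference 1.17, SE 0.055, limma adjusted p = 4.09e-10). Ebi3, the gene of the partner subunit in interleukin-35 and interleukin-27, had 1794 ± 229 in leukaemia, against 2857 ± 374 in myeloid cells, a lower value (log2 difference -0.54). This Ebi3 difference depended on the scaling: it was -0.27 under quantile normalisation and only -0.039 on the table-total scale. Il12b was not analysed here. Il27, below the filter, had 31.4 ± 4.23 against 302 ± 55.8 without overlap.

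Il16, a chemoattractant made from a large precursor, had 2896, 2621, 2783, 2725 and 2658 normalised reads in leukaemia and 13048, 15737, 12877, 17089 and 13139 in myeloid libraries, 5.25-fold lower (log2 difference -2.17, SE 0.082, limma adjusted p = 6.04e-11). Its exons share 15.3% of their bases with Stard5 on the opposite strand, and the strand setting of the counts is not given. Il15, which supports NK cells and memory T cells, had 324, 324, 329, 352 and 344 in leukaemia and 1164, 1534, 1088, 1462 and 946 in myeloid libraries, 3.70-fold lower (log2 difference -1.11, SE 0.086). Il6 had no read in leukaemia, against 25.0 ± 13.7 normalised reads in myeloid cells, at least 10.4-fold lower against the floor of 3 reads per library.

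Of 18 tested interleukin receptor genes, 13 were lower and 5 higher, Il1rl2 among the higher. Il3ra, the binding chain for interleukin-3, a growth factor of early myeloid cells, had 1560.4, 1839, 1804, 1714 and 1768 normalised reads in leukaemia and 596, 726, 535, 599 and 621 in myeloid libraries. It was 2.82-fold higher (log2 difference 1.03, SE 0.059, limma adjusted p = 2.47e-09), whereas Csf2rb, the signalling chain it pairs with, was lower (6897 ± 433 against 17344 ± 3711, log2 difference -1.24) and can share reads with its close copy Csf2rb2. Il21r, the interleukin-21 receptor, had 633, 767, 622, 818 and 701 in leukaemia and 272, 138, 195, 95.9 and 144 in myeloid libraries, 4.19-fold higher (log2 difference 1.01, SE 0.091, limma adjusted p = 2.06e-07). Il2rg, the common gamma chain with which Il21r works, passed as lower (1358 ± 84.7 against 2046 ± 791, limma adjusted p = 0.0301), but its groups overlapped, its difference was above 0 on the table-total scale (0.14), and it lost its call under quantile normalisation (-0.25). It also did not pass when any 1 of leukaemia replicates 2 and 3 or myeloid replicates 1, 3 and 5 was left out (limma adjusted p from 0.0503 to 0.0712); its log2 difference was -0.40, and -0.25 without myeloid replicate 1. Its exons overlap those of Gm20489, and those of Il10rb overlap Gm21970, so reads may be shared. Il22ra2, which encodes a soluble binder of interleukin-22, had 537, 416, 618, 422 and 507 in leukaemia and 30.3, 72.1, 46.4, 59.3 and 91.0 in myeloid libraries, 8.36-fold higher (log2 difference 1.13, SE 0.078).

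The remaining higher receptors were Il31ra (2.75-fold, 383 ± 118 against 139.5 ± 53.0) and Il11ra1 (2.09-fold, 563 ± 60.7 against 269 ± 31.1), a gene with near-identical copies that can split its reads. The other tested interleukin receptor genes were lower. Il17ra, a shared chain of the interleukin-17 receptors, was 4.19-fold lower (6001 ± 794 against 25163 ± 811). Il13ra1 (5.25-fold) and Il4ra (2.79-fold), which form the interleukin-4 and interleukin-13 receptor, were both lower, as were Il6ra (2.93-fold) and Il6st (2.62-fold), the binding and signalling chains for interleukin-6. Of the interleukin-10 receptor, Il10ra was 4.21-fold lower (1029 ± 251 against 4326 ± 2401), and Il10rb was 1.49-fold lower (2146 ± 111 against 3204 ± 213) with the authors' size factors but above 0 on the table-total scale (0.06).

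Il2rb, the signalling chain for interleukin-2 and interleukin-15 on NK and T cells, was nearly absent from leukaemia. It had 20.1, 2.22, 9.35, 0 and 10.2 normalised reads in leukaemia and 3069.9, 1345, 1067, 783 and 1094 in myeloid libraries, 176-fold lower (log2 difference -2.48, SE 0.21, limma adjusted p = 1.31e-07). Ccl5, a chemokine of NK and T cells below the filter, had 11.6, 13.3, 10.1, 0 and 6.49 in leukaemia and 999, 392, 354, 225 and 371 in myeloid libraries. In both genes myeloid replicate 1 was highest and replicate 4 lowest, and the summed NK markers were 5194, 3023, 2424, 1676 and 2256 in myeloid replicates 1 to 5. The defining NK marker Ncr1 had 0.928 ± 2.07 normalised reads in leukaemia, against 451 ± 199.5 in myeloid cells, and Klrb1c had 20.6 ± 8.36 and 542 ± 303. The T cell markers, 7 of 8 with an entry and none of them tested, summed to between 134 and 233 in leukaemia and between 616 and 1197 in myeloid libraries. Cd28 alone was higher in leukaemia (from 126 to 228, against 35.3 to 84.2), and the other 6 summed to between 5.09 and 44.5 in leukaemia and between 531 and 1118 in myeloid libraries. Without leukaemia replicate 1 the fold of Il2rb was 270.5. Without myeloid replicate 1 its log2 difference was -2.24, and the part of NK and T cells in these differences was not tested.

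Tnf and its receptors were lower in leukaemia. Tnf had 350.3, 162, 278, 153 and 232 normalised reads in leukaemia and 967, 1042, 1115, 1150.5 and 1037 in myeloid libraries, 4.52-fold lower (log2 difference -1.21, SE 0.088, limma adjusted p = 2.43e-08). Tnfrsf1a, the death-domain receptor of TNF, had 3793, 4337, 3607, 4618 and 3995 in leukaemia and 10318, 11761, 9912, 11990.3 and 10245 in myeloid libraries, 2.66-fold lower (log2 difference -1.30, SE 0.078). Tnfrsf1b, the other TNF receptor, had 4244, 3645, 3146, 3087 and 3104 in leukaemia and 14574, 5462, 10575, 6640.4 and 11022 in myeloid libraries, 2.80-fold lower (log2 difference -1.28, SE 0.21). For Tnfrsf1b the myeloid libraries spread widely, with replicates 2 and 4 lowest, while for Tnfrsf1a the same replicates were highest.

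The ligands BAFF and APRIL, which act on B cells, stood opposite one of their receptors. Tnfsf13b, the BAFF gene, had 94.3, 75.3, 47.5, 76.4 and 52.9 normalised reads in leukaemia and 2289, 3178, 1855, 3794 and 2008 in myeloid libraries, 37.9-fold lower (log2 difference -2.72, SE 0.14, limma adjusted p = 1.06e-09). Tnfrsf13b, which encodes the receptor TACI, had 2993, 3100.2, 2827, 3018 and 2997 in leukaemia and 1773, 1406, 1898, 965 and 1708 in myeloid libraries. It was 1.93-fold higher in leukaemia without overlap (log2 difference 0.78, SE 0.11, limma adjusted p = 1.89e-05). Tnfrsf13c, the BAFF receptor of B cells, was below the filter (3.34 ± 3.77 against 49.0 ± 22.1), and the 7 B cell markers summed to between 465 and 606 in leukaemia and between 559 and 2342 in myeloid libraries; among them Cd79b had 464 ± 41.6 against 312 ± 140.2.

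Tnfsf13, the APRIL gene, had 229.6, 289, 167, 312 and 281 normalised reads in leukaemia and 742, 576, 717, 551 and 557 in myeloid libraries, 2.46-fold lower (log2 difference -0.66). It shares 983 exon bases with the read-through gene Tnfsfm13, which had 229, 329, 265, 358 and 255 in leukaemia and 443, 378, 489.7, 328 and 478 in myeloid libraries. Reads of these genes can be split between them; Tnfsfm13 passed as lower (log2 difference -0.27) with overlapping groups, and was above 0 on the table-total scale (0.09). Tnfsf14, which encodes LIGHT, had 393, 471, 502, 641 and 495 in leukaemia and 1905, 2731, 1694, 2951 and 1866 in myeloid libraries, 4.45-fold lower (log2 difference -1.46, SE 0.12). Its receptor gene Tnfrsf14 had 829, 926, 659, 625 and 571 in leukaemia and 1544, 1739, 1314, 1781 and 1355 in myeloid libraries, 2.14-fold lower (log2 difference -0.76). Ligand and receptor of this pair thus moved the same way.

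Tnfsf10, the gene of the death ligand TRAIL, passed as higher, with overlapping groups. It had 238, 261, 201, 164 and 191 normalised reads in leukaemia and 251, 92.2, 126, 105 and 129 in myeloid libraries, where replicate 1 lay far above the other myeloid libraries. The log2 difference was 0.22 (limma adjusted p = 0.0272); it did not pass after quantile normalisation (0.07) or when any 1 of leukaemia replicates 1 and 2 or myeloid replicates 2, 3 and 4 was left out (limma adjusted p from 0.0503 to 0.068). Tnfrsf22 and Tnfrsf23 encode decoy receptors of TRAIL in the mouse and are close copies of each other. Tnfrsf22 had 221, 252, 286, 222 and 303 in leukaemia and 24.5, 123, 107, 143 and 92.4 in myeloid libraries, 2.62-fold higher (log2 difference 0.51). Tnfrsf23 had 351, 297, 249, 273 and 267 in leukaemia and 458, 461, 302, 450.3 and 371 in myeloid libraries and passed as lower (log2 difference -0.24), but it was above 0 on the table-total scale (0.14). Tnfrsf10b, the mouse death receptor of TRAIL, lay below the filter, with 55.5 ± 9.83 against 16.5 ± 9.69 and no overlap. Tnfrsf21, death receptor 6, had 3633, 3195, 3107, 3587 and 3331 in leukaemia and 8390.2, 7960.2, 7111, 8453 and 7394 in myeloid libraries, 2.33-fold lower (log2 difference -1.10, SE 0.066).

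The genes whose names start with Tnfaip, grouped by name only, encode neither ligands nor receptors, and 4 of 4 tested were lower. Tnfaip2 had 3762, 4956, 3204, 3591 and 3697 normalised reads in leukaemia and 12301, 14279, 10959.5, 14945 and 11746 in myeloid libraries, 3.34-fold lower (log2 difference -1.61). Tnfaip8l2, which encodes the immune regulator TIPE2, had 1139.7, 1279, 958, 941 and 1033 in leukaemia and 3764, 4188, 3191, 3620.4 and 3509.7 in myeloid libraries, 3.42-fold lower (log2 difference -1.40). In both genes every leukaemia library lay well under the lowest myeloid library. Tnfaip8 had 3749, 3677, 3717, 3769 and 3603 in leukaemia and 5632, 7716, 5972, 7005 and 5810.0 in myeloid libraries, 1.74-fold lower (log2 difference -0.71). Tnfaip3, the gene of A20, which switches NF-kB signalling off, had 863, 652, 788, 639 and 784 in leukaemia and 2375, 1015, 1679, 1349 and 1609 in myeloid libraries; it was 2.15-fold lower (log2 difference -0.74) but did not pass on the table-total scale (-0.40, limma adjusted p = 0.117).

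TGF-beta ligand and receptor genes stood in opposite directions. Tgfb1 had 9808, 10968, 9727, 12147 and 11249 normalised reads in leukaemia and 7447, 6898, 5942, 6778 and 6598 in myeloid libraries, 1.60-fold higher without overlap (log2 difference 0.64, SE 0.078, limma adjusted p = 4.28e-06). Tgfbr2, the chain that binds the ligand first, had 628, 558, 542, 521 and 519.5 in leukaemia and 4127, 2421, 3074, 3468 and 3101 in myeloid libraries, 5.85-fold lower (log2 difference -1.83, SE 0.098, limma adjusted p = 1.33e-09). Tgfbr1, the kinase chain recruited next, had 2606, 1822, 2395, 2066 and 2004 in leukaemia and 3527, 3483, 4035, 4126 and 3659 in myeloid libraries; it was 1.73-fold lower (log2 difference -0.67) but did not pass on the table-total scale (-0.16). Tgfbr3, the co-receptor betaglycan, lay below the filter with 1.55, 2.95, 5.03, 5.09 and 4.64 in leukaemia and 429, 31.9, 275, 89.6 and 378 in myeloid libraries. Tgfbrap1, a receptor-associated protein, had 1425, 1415, 1306, 1353 and 1347 in leukaemia and 1558, 1468, 1542, 1626 and 1559.8 in myeloid libraries; this small decrease (-0.13) did not pass under quantile normalisation and became an increase that passed on the table-total scale (0.46).

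**Figure D4:**
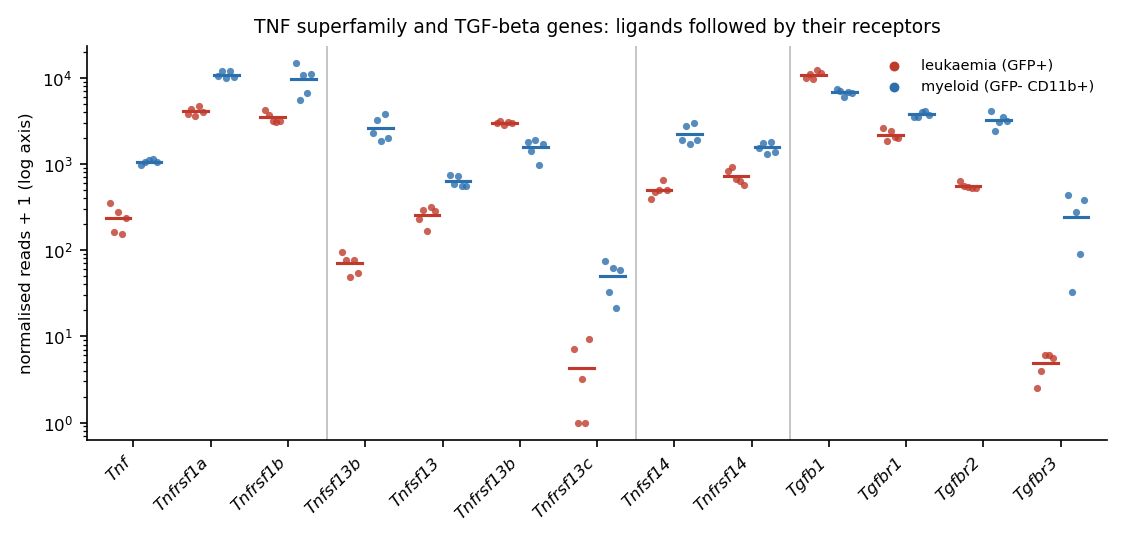
Normalised reads plus 1 on a log axis for TNF superfamily and TGF-beta genes, one point per library and a bar at the group mean, leukaemia left of myeloid, with each ligand followed by its receptors. Tnfsf13b is lower in leukaemia while Tnfrsf13b is higher, and Tgfb1 is higher while Tgfbr1, Tgfbr2 and Tgfbr3 are lower.

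The 38 genes below the filter had group means from 0 to 468 normalised reads. Some were low in 1 group only, such as Cxcl12 (438 in leukaemia against 15.6) and Ccl5 (8.29 in leukaemia against 468). In 22 of the 38 genes the groups did not overlap, with 6 higher and 16 lower in leukaemia. Of all 2062 genes below the filter, 46.5% were higher and 29.0% lower without overlap. Besides those named above, Tgfb1i1, an adaptor gene, was on the higher side. On the lower side were Tnfsf8, Tnfsf9, Tnfaip6, Il27ra, Il7r and Tnfrsf9, the last with no read in leukaemia, against 93.4 ± 68.7 in myeloid cells (at least 38.9-fold lower). Ccl22 also had no read in leukaemia, but 2 of 5 myeloid libraries had none either. Groups overlapped for Tnfrsf12a, Tnfrsf25, Ccl4, Ccl22, Ccl25, Cxcl16, Ccr3, Ccr10, Cxcr5, Il1a, Il17c, Il33, Il2ra, Il9r, Il12rb2 and Il17rb. With no filter, 36 of the 38 passed limma (9 higher and 27 lower), beside 57.4% higher and 40.8% lower over all genes below the filter. Cxcl16 and Il12rb2 did not pass; Il12rb2 shares 1519 exon bases with Serbp1 on the opposite strand.

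The genes also differed among the myeloid libraries. In 19 of the 56 tested genes myeloid replicates 2 and 4 both lay above replicates 1, 3 and 5, and in 16 genes both lay below. Over all 8079 tested genes 32.1% had both above, beside 33.9% of the 56. Both lay below in 1054 of all tested genes (13%), beside 28.6% of the 56. The highest myeloid value fell in replicate 2 or 4 for 27 of the 56 genes, against 61.4% of all tested genes. The genes above included Cxcr2, Il1f9, Il1r2, Il1rn, Ccl6 and Tnfsf13b. Those below included Ccr2, Il1b, Cxcl2, Il10ra, Il13ra1 and Tnfrsf1b. Il10ra, for instance, had 7640.5, 1831, 5055, 2118 and 4987 normalised reads in myeloid replicates 1 to 5, and Il13ra1 had 2794, 2714, 4748, 1301 and 4012.

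Marker lists of other cell types varied between the same libraries. The monocyte markers, 4 of 5 with an entry and Ccr2 itself among them, summed to 90725, 52911, 98709.7, 58781 and 88642 in myeloid replicates 1 to 5, lowest in 2 and 4. Of these markers, F13a1 was lowest in replicate 1 (24874, 27249, 31078.5, 28431 and 29702), whereas Ccr2, Csf1r and Cx3cr1 were lowest in 2 and 4. Dendritic cell and MHC class II markers (7 of 7) summed to 59165, 4677, 41937, 4704 and 38152, also lowest in 2 and 4, and to between 776 and 2124 in leukaemia. Neutrophil markers summed to 2088661, 3495568, 2281218, 2744530.0 and 2283362, highest in 2 and 4. The part of these cells in the members' values was not tested. Without myeloid replicates 2 and 4, the log2 differences were -2.56 for Ccr2, -4.50 for Il1b, -2.80 for Cxcl2 and -5.40 for Cxcr2. In 3 genes (Cxcl2, Il1b and Tnfaip3) replicates 2 and 4 lay below replicates 1, 3 and 5 in both groups, 5.36% of the 56 against 3.47% of all tested genes.

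**Figure D5:**
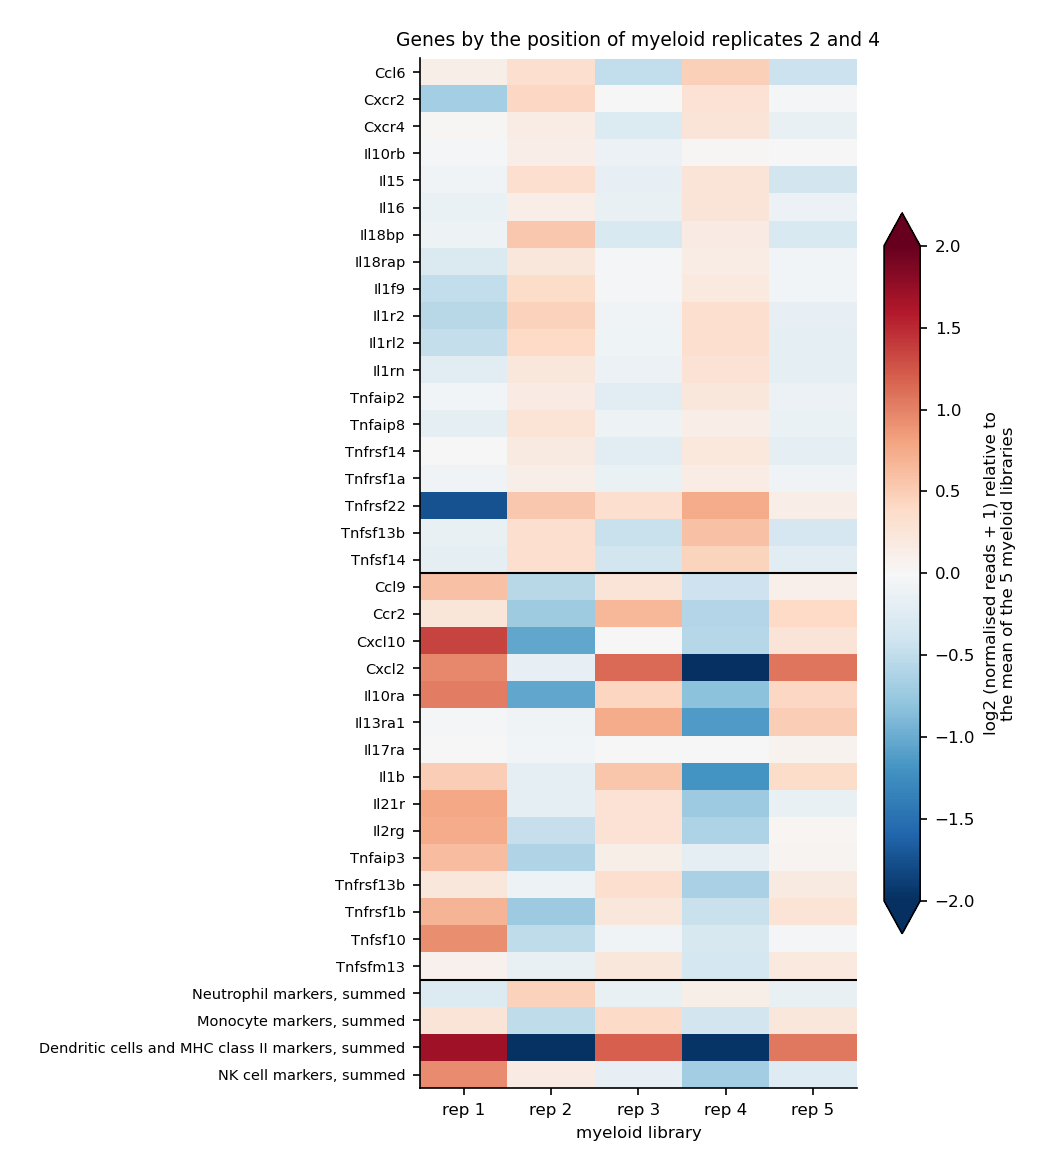
Log2 of normalised reads plus 1, relative to the mean of the 5 myeloid libraries, for the 19 genes with replicates 2 and 4 above the others (top) and 15 of the 16 with both below (middle), and for summed marker lists (bottom). Summed monocyte markers, with Ccr2 of the middle block among them, and summed MHC class II markers are lowest in replicates 2 and 4. Summed neutrophil markers are highest in replicates 2 and 4.

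Genes of the same pathways outside the name rule were also mostly lower, beside 50.7% of all tested genes. Of 39 other cytokine and chemokine genes with an entry, 30 were tested, of which 25 were lower and 4 higher, with a median log2 difference of -0.86. Lowest were Csf3r, the G-CSF receptor (11.3-fold lower), Ifnlr1, a lambda interferon receptor chain (35.8-fold), and the lymphotoxin gene Ltb (189.9-fold). Highest were the cytokine gene Mif (6.85-fold higher), Cmtm7 (4.03-fold) and Kit, which encodes the receptor of stem cell factor (3.38-fold).

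Downstream of the receptors, 19 of 23 tested JAK, STAT and SOCS genes were lower and 4 higher (median -0.77). Socs3, a feedback inhibitor of interleukin-6 signalling, had 46.8 ± 13.8 normalised reads in leukaemia, against 1866 ± 911 in myeloid cells, 39.8-fold lower; the kinase gene Jak1 was 3.37-fold and Stat6, the interleukin-4 transducer, 3.03-fold lower. Pias2, Socs5 and Socs7 were between 1.54 and 1.99-fold higher. In the interleukin-1, TNF and NF-kB list 36 of 41 were lower and 5 higher (median -0.65). There Nfkbiz, an interleukin-1-induced NF-kB cofactor, was 18.7-fold lower, Birc3 4.21-fold and the adaptor gene Myd88 3.58-fold lower, while Fadd, a death-receptor adaptor, was 2.18-fold, the inhibitory receptor gene Sigirr 2.22-fold and the kinase gene Irak1 1.48-fold higher. In the TGF-beta and activin list 16 of 19 were lower and 3 higher (median -0.83), with the activin subunit gene Inhba 93.2-fold, Bmpr1a 28.2-fold and Skil 5.03-fold lower, and Smad5 2.62-fold, Bambi 2.67-fold and Nrros, which anchors latent TGF-beta, 1.40-fold higher. On the table-total scale, the counts lower and higher were 15 and 5, 11 and 7, 21 and 11, and 12 and 3 for these lists in the order given. Over all tested genes on that scale, 27.6% were lower and 57.2% higher. Each gene named here kept its direction.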

How the data were processed

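RNA of 10 libraries of bone marrow cells was extracted with TRIzol and prepared with an unstated strand setting; HISAT2 (2.0.4 and 2.2.1) and DESeq2 are named in the submitters' processing notes. The deposited table holds log2-scale variance-stabilised values of 10141 genes, with 8.1823 as its lowest value, made by the authors before deposit. How its genes were selected is not given in the sources used here. Values were turned back into reads and size factors: in every library 100.0% of values up to 300 reads came within 0.1 of a whole read. Differences were tested with limma 3.58.1 (R 4.3.3, trended variance, two-sided, Benjamini-Hochberg over 8079 genes whose mean lay over 1 unit above the lowest value). Because 99.8% of them passed, the table may hold selected genes, and adjusted p-values do not give a false discovery rate over the transcriptome. The procedure was tested on simulated data. In the limma simulation only 200 genes were changed, unlike in this table, so it cannot show how accurate these calls are. Members and gene lists were chosen with earlier results of these data known. Every member may be named. Up to 4 highest and up to 4 lowest passing members of each role group get full values, as do some others. Up to 3 genes per direction are named from each pathway list. Per-kilobase levels use GENCODE M21 exon lengths. Deviations from the group means correlated between -0.02 and 0.32 for same-numbered libraries. This cannot show whether such libraries share a mouse, so numbers were treated as pairs only in an alternative. Alternatives changed filter, scaling, replicate block, libraries, name rule and threshold. For 1 tested receptor gene and 1 marker gene, values are not reported here.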

Additional observations from a re-analysis of the deposited data

Results flagged for a closer look

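Tnfsf10, the gene of the death ligand TRAIL, had 250.7 normalised reads in myeloid replicate 1, while the other 4 myeloid libraries lay between 92.2 and 129. The gap was 0.712 of the group's range, above the limit of 0.71 for 5 samples. It was the 1 library marked among 112 gene and group combinations tested, and chance marks about 1 in 20.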

How the results depend on the processing

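Of 934 comparisons of the 56 tested genes with their values under an alternative, 900 kept direction and call, 23 lost the call, 3 gained it and 8 changed sign, and 45 genes kept both under every alternative that tested them. With no filter, 20 genes were higher (8 ligands) and 71 lower (22 ligands, 41 receptors), beside 50.8% and 48.7% of all 10141 genes; with a stricter filter, which tests 38 of them, 3 were higher (1 ligand, 2 receptors) and 35 lower (8 ligands, 21 receptors), beside 41.6% and 58.3% of 5806 genes. With an absolute log2 difference of at least 1, 5 were higher (1 ligand, 3 receptors). Reading the name rule as Tnf followed by a digit or r left 7 lower ligands. Leaving out each library in turn gave 10 to 12 higher and 42 to 45 lower genes, 2 to 4 higher and 11 to 13 lower ligands, and 7 higher and 24 to 25 lower receptors. On the table-total scale, 35 genes were lower and 12 higher, beside 27.6% lower and 57.2% higher over all tested genes. There the difference changed sign for Tgfbrap1 (0.46), Tnfsfm13 (0.092), Tnfrsf23 (0.14), Cxcl10 (0.053), Ccl9 (0.20), Il2rg (0.14) and Il10rb (0.061). After quantile normalisation the sign changed for Ccl9 (0.13), and Tnfsf10, Il2rg and Tgfbrap1 lost their calls while Cxcl10 gained one. The cause was not tested. With the replicate number as a block 11 genes were higher and 44 lower, and no call changed. In deviations from the group means, 4 of 10 libraries correlated best with their own number. Genes with few reads, such as Cxcl12 with 64 reads in all myeloid libraries, are limited by depth.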
